A study of Mus musculus with 16 samples.

Results

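Fibroblast and pericyte genes were examined in mammary tumors of mice that carry the polyoma middle T oncogene (PyMT). The set holds 10 named genes of the 23609 in the table, of which 7 mark fibroblasts (Pdgfra, Fap, Dcn, Lum, Postn, Thy1 and Dpt) and 3 mark pericytes (Pdgfrb, Rgs5 and Cspg4). The genes were chosen by name and all 10 had a mean over the filter on low values, which kept 21034 genes. The question was whether the 2 groups of genes vary apart between tumors.

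The tumors came from littermates, and all animals carried PyMT under the MMTV promoter, which is active in the mammary epithelium. Wildtype tumors were compared with tumors of gene trap animals, which the labels give as Resf1 +/- and which were thus heterozygous. The trap is a lentiviral insertion carrying an EGFP-Cre fusion in the first exon of Resf1, in mice of C57BL/6 background that were crossed with FVB/MMTV-PyMT mice, and it is present in all cells of the animal, in the stroma as in the epithelium. Neither group was treated, and ages were not given in the sources used here. The RNA was total RNA of whole tumors, and 5 wildtype and 5 gene trap tumors had a column that matched a label. Values are estimated counts that were already scaled by the median ratio method, and they are called normalized values here. The depth of each tumor is unknown.

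Fibroblasts build and remodel the collagen matrix of the mammary stroma, and in carcinomas many of them take an activated state with raised matrix production. Pericytes sit on the outer wall of capillaries, share a basement membrane with the endothelium and are recruited by PDGF-B, which endothelial cells release and which binds the receptor encoded by Pdgfrb. The receptor encoded by Pdgfra marks most fibroblasts and is usually absent from pericytes, while Pdgfrb is present on pericytes and also on many fibroblasts. In whole tumors, fewer cells of a type and less RNA per cell cannot be told apart.

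Promoter sequences are shown for 3 genes on which the results turn. Pdgfra and Rgs5 are the fibroblast and the pericyte gene against which the others were set, and Dpt is the gene that departed most from the others. They are RefSeq sequences of build GRCm38.p6, not of mm39 to which the reads were aligned, and they run from 250 bases before to 50 bases after the annotated start. Of the 10 genes, 5 had a promoter in the RefSeq table (Dpt, Rgs5, Postn, Pdgfra and Cspg4). Capitals mark the TATAA motif in Pdgfra and Dpt, and in Rgs5 the reverse strand of the CCAAT motif. All 3 lie on the plus strand, at chr5:75152001-75152300 for Pdgfra, chr1:169655251-169655550 for Rgs5 and chr1:164796413-164796712 for Dpt.
Pdgfra: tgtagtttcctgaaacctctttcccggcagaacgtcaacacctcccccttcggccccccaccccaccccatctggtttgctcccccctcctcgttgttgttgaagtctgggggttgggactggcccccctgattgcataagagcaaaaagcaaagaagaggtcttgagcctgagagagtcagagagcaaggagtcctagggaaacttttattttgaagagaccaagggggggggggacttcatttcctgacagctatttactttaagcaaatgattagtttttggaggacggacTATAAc
Rgs5: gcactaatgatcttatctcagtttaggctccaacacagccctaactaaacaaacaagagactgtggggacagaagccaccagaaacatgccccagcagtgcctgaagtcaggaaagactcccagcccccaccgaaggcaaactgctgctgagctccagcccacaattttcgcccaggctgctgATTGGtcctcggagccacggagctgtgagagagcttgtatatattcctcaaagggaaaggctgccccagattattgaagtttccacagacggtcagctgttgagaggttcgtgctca
Dpt: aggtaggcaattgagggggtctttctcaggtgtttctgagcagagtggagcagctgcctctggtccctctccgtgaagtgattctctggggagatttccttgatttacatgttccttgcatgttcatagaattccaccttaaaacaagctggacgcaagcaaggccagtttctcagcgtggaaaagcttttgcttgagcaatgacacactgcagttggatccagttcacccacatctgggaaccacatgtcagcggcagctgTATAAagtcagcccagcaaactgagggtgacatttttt

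The motifs searched, on both strands, were the TATA box letters TATAA, the CAAT box letters CCAAT, the GC box letters GGGCGG and the CArG box, the site that serum response factor binds in many smooth muscle genes. TATAA was found 45 bases after the annotated start in Pdgfra and 13 bases after it in Dpt, and in 24.9% of all 32851 promoters of the same length. The CCAAT motif stood 67 bases before the start in Rgs5 and was present in 37.4% of all promoters. None of the 3 promoters held GGGCGG (35.7% of all promoters) or a CArG box (1.6%). The 3 genes thus shared none of the 4 motifs throughout, and a match is a description of letters only.

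Every gene of the set was well above the filter, but levels per kilobase of the longest coding transcript covered a wide range. Postn, which encodes the matricellular protein periostin, was the highest with 5161 ± 1613 normalized counts per kilobase (SD over 10 tumors). Dcn, which encodes decorin, followed with 1411 ± 482, and Lum, which encodes lumican, with 567 ± 193. The lowest value of Postn in any tumor, 3199 per kilobase, was above the highest of Dcn, 2415. Rgs5 stood at 471 ± 168 per kilobase and Dpt at 408 ± 180, and the steps from Lum to Rgs5 and from Rgs5 to Dpt were smaller than the SD of either gene. Thy1 had 293 ± 68.5, Pdgfra 214 ± 52 and Pdgfrb 178 ± 41.5 per kilobase. The step from Pdgfra to Pdgfrb was also smaller than either SD. Fap with 80.3 ± 27.8 and Cspg4 with 35.2 ± 6.56 per kilobase were the lowest, and the ranges of these neighbors over the tumors did not overlap.

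The gene trap was checked first. Resf1 was 4099 ± 400 (SD, n = 5) in wildtype and 3516 ± 361 in gene trap tumors, a log2 difference of -0.22 (SE 0.09), and the groups overlapped. The limma 95% interval was -0.42 to -0.02, with an unadjusted limma p of 0.0313. The exact permutation p was 0.0635, and the limma p adjusted over all genes tested was 0.9997. On the first principal component over all genes, gene trap replicate 2 stood at 91.8 and the other tumors between -18.6 and -4.8. The members were therefore also computed without that tumor.

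Among the fibroblast genes, Pdgfra, the PDGF receptor alpha that marks the lineage, was 1477, 1243, 1523, 902 and 2009 in wildtype replicates 1 to 5. It was 2088, 1276, 1431, 1277 and 1368 in gene trap replicates 1 to 5. Wildtype replicate 5 and gene trap replicate 1 were high and wildtype replicate 4 was low, and the groups overlapped. Their means were 1431 ± 406 and 1488 ± 342.

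Fap encodes a membrane serine protease of activated fibroblasts. Its values were 186, 151, 277, 180 and 344 in the wildtype tumors and 347, 128, 189, 197 and 212 in the gene trap tumors. The same pair of tumors was highest, here followed by wildtype replicate 3, and gene trap replicate 2 was lowest.

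Dcn and Lum encode small leucine-rich proteoglycans that bind collagen fibrils and regulate their thickness. Dcn was 2052, 1918, 3249, 1697 and 3434 in the wildtype tumors and 4246, 1997, 2094, 2009 and 2113 in the gene trap tumors. Lum was 1215, 1053, 1712, 863 and 1941 in the wildtype tumors and 2363, 1293, 1037, 1082 and 1330 in the gene trap tumors. In both genes gene trap replicate 1 stood alone above the 4 other gene trap tumors, while in the wildtype group replicates 3 and 5 were both high. The ratio of Lum to Dcn stayed between 0.495 and 0.648 in all 10 tumors. In the RefSeq gene order, Dcn and Lum are neighbors on chromosome 10 with 0 protein-coding genes between them.

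Postn and Thy1 had the highest r with Pdgfra of all members, 0.93 and 0.96 on log2 values. Postn was 14240, 15018, 17009, 10254 and 25880 in the wildtype tumors and 25329, 11867, 14371, 15030 and 16418 in the gene trap tumors. Thy1, a surface glycoprotein of fibroblasts that T cells and neurons also carry, was 528, 451, 551, 317 and 739 in the wildtype tumors and 649, 464, 512, 456 and 422 in the gene trap tumors. Both genes were highest in wildtype replicate 5 and lowest in wildtype replicate 4.

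Dpt encodes dermatopontin, a small matrix protein that binds decorin. It was 326, 395, 1104, 624 and 1024 in the wildtype tumors and 1150, 901, 458, 516 and 536 in the gene trap tumors. Its order of tumors differed from that of the other genes, since wildtype replicate 3 and gene trap replicate 2 came close to the highest tumors. The lowest was wildtype replicate 1, which ranked 3 of 10 in Pdgfrb and 4 of 10 in Rgs5, Pdgfra and Thy1. That tumor ranked 6 of 10 in Dcn, Lum and Cspg4, 7 in Fap and 8 in Postn. The highest value of Dpt was 3.52 times the lowest, against 2.04 to 2.91 times in the other 9 genes.

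Among the pericyte genes, Pdgfrb was 1152, 1001, 805, 563 and 1212 in the wildtype tumors and 1287, 767, 1097, 927 and 866 in the gene trap tumors. Rgs5, a GTPase-activating protein that dampens G protein signaling and is abundant in pericytes, was 1963, 1377, 1700, 1345 and 3446 in the wildtype tumors and 2739, 1186, 1984, 1731 and 1818 in the gene trap tumors. Cspg4, which encodes the NG2 proteoglycan on the pericyte surface, was 287, 291, 309, 220 and 371 in the wildtype tumors and 334, 299, 286, 283 and 182 in the gene trap tumors. Wildtype replicate 5 and gene trap replicate 1 were the 2 highest tumors in all 3 genes. The low end differed, with wildtype replicate 4 lowest in Pdgfrb, gene trap replicate 2 in Rgs5 and gene trap replicate 5 in Cspg4.

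**Figure D1:**
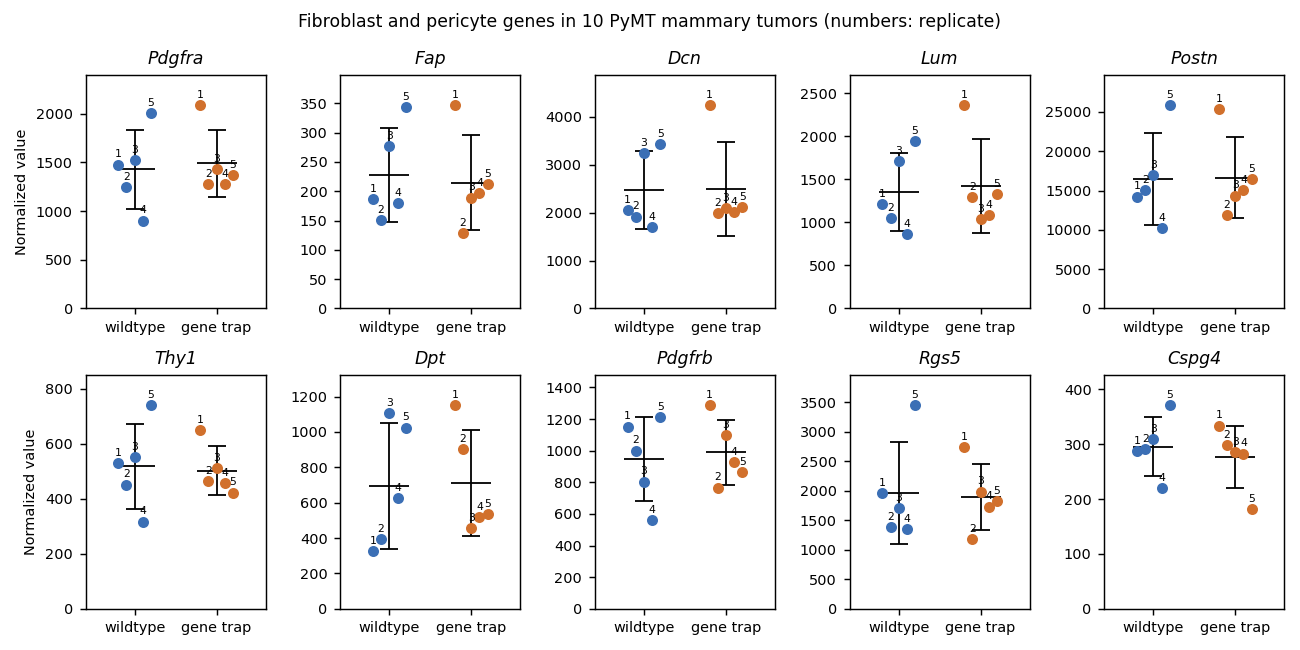
Normalized value (y axis, linear) of each of the 10 genes in every tumor, by genotype (x axis), with the replicate number beside each point, a line at the group mean and bars of 1 SD (n = 5 per group). The genotypes overlap in every gene, and gene trap replicate 1 and wildtype replicate 5 lie at or near the top of nearly every panel, with Pdgfra at 2088 and 2009.

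Over the set, gene trap replicate 1 was among the 2 highest tumors in 10 of 10 genes and wildtype replicate 5 in 9 of 10, the exception being Dpt. Wildtype replicate 4 was among the 2 lowest in 8 of 10 genes. The SD of the log2 values over the 10 tumors ran from 0.29 in Cspg4 to 0.65 in Dpt, against a median of 0.25 over all genes tested. Dpt lay at percentile 92.4 of this SD among all genes tested and Cspg4 at percentile 57.7.

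The spread between tumors was not matched by a difference between genotypes. None of the 10 genes passed limma at an adjusted p of 0.05, where 0% of all genes tested were called, and 0 of 10 had an unadjusted p under 0.05, against 2.28% of all genes. The log2 difference, gene trap minus wildtype, was above 0 in 6 genes and below 0 in 4, with a median of 0.01 for the set and 0.01 for all genes tested.

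The largest log2 differences were small beside their errors. Dpt had 0.11 (SE 0.36) with a 95% interval from -0.68 to 0.89, the widest of the set. Cspg4 had -0.10 (SE 0.18) with an interval from -0.49 to 0.28, the narrowest. For the receptors, Pdgfra had 0.08 with an interval from -0.35 to 0.51 and Pdgfrb 0.09 with an interval from -0.35 to 0.54. All 10 intervals held 0 and also held differences of 0.28 in either direction, so changes of that size were not resolved with 5 tumors a group.

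By the exact permutation test on log2 values, the lowest p of the 10 genes was 0.587, for Cspg4, where 5 against 5 tumors can reach 0.00794. Every limma adjusted p was 0.9997. Without gene trap replicate 2 the log2 differences of Pdgfra, Postn and Rgs5 were 0.128, 0.138 and 0.141, and that of Cspg4 was -0.139. In the same fit Fap was 0.077, Thy1 0.013 and Dpt -0.002. Fap, Thy1, Dpt and Rgs5 thus had the opposite sign to the fit over all tumors. With gene trap replicates 1 and 2 both left out, the log2 difference of Dpt was -0.301. No gene passed the test in either fit.

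**Figure D2:**
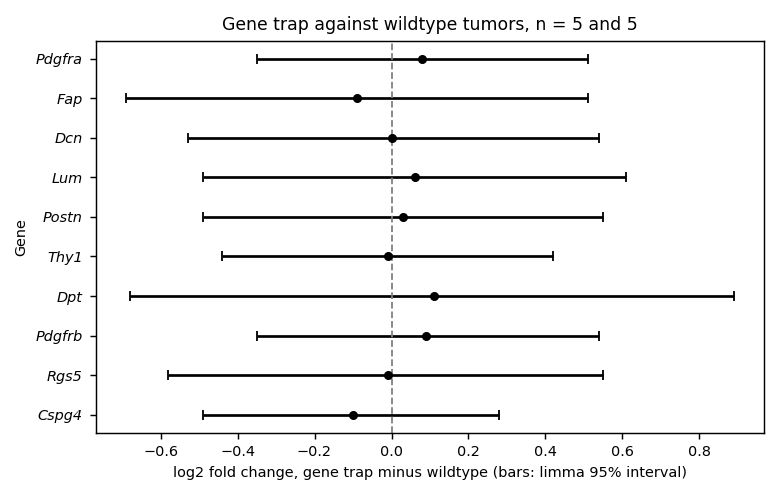
Log2 difference, gene trap minus wildtype, for each gene (x axis, log2 of the normalized value + 1), with points for the limma estimate and bars for its 95% interval (n = 5 and 5 tumors). Every bar crosses 0, and the bar of Dpt, from -0.68 to 0.89, is the longest.

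Over all 10 tumors most pairs of genes had a positive r, with Dpt as the gene that followed the others least. The r between fibroblast and pericyte genes was lower without the tumors at the extremes. The median Pearson's r of the log2 values was 0.84 in the 21 pairs of fibroblast genes, with a range from 0.45 to 0.96. It was 0.65 in the 21 pairs of a fibroblast and a pericyte gene, ranging from -0.04 to 0.89, and 0.58 in the 3 pairs of pericyte genes. The median of the pericyte genes among themselves was thus no higher than that of pericyte with fibroblast genes. The difference between the medians was not tested, because the pairs share genes and tumors. Without wildtype replicate 5 and gene trap replicate 1 the fibroblast-pericyte median was 0.332 and the fibroblast-fibroblast median 0.647. Without wildtype replicate 4 as well they were 0.048 and 0.557, over 7 tumors.

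Dpt accounted for much of the lower end. In the 36 pairs without Dpt the median r was 0.81, with a range from 0.39 to 0.96. Dpt had a median r of 0.47 with the 9 other genes, against 0.86 for Pdgfra and 0.87 for Postn. Cspg4, with 0.55, and Pdgfrb, with 0.58, came next to Dpt at the low end. The highest pairs were Pdgfra with Thy1 and Dcn with Lum, both at 0.96.

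**Figure D3:**
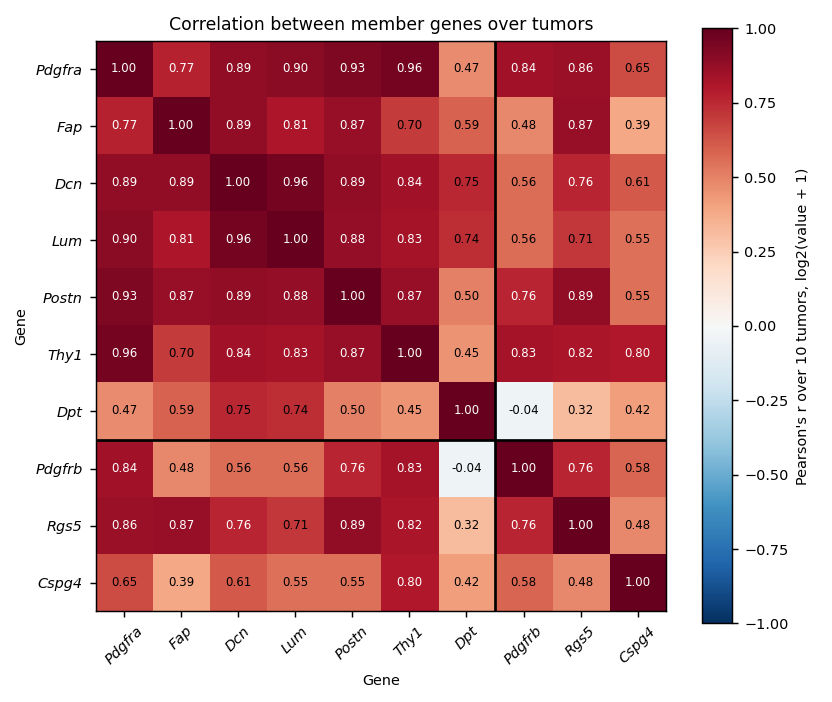
Pearson's r of log2(value + 1) over 10 tumors for each pair of genes (both axes list the genes, and the black lines part fibroblast from pericyte genes). All pairs but Dpt with Pdgfrb (-0.04) are above 0, and the row of Dpt is the palest.

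The shared variation crossed the line between fibroblast and pericyte genes. Pdgfra and Rgs5 had r = 0.86 (permutation p = 0.00262) and Spearman's rho = 0.82 (permutation p = 0.00578) over 10 tumors. Adjusted over the 21033 correlations of Pdgfra with all other genes tested, the p of r was 0.177. Within the genotypes r was 0.88 in wildtype and 0.85 in gene trap tumors, 5 tumors each, given as a description. Without the 2 tumors farthest from the median of Pdgfra, r was 0.91 (exact permutation p = 0.0059), and without gene trap replicate 2 it was 0.90.

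The r of this pair was lower without the tumors at the top, whose removal also narrows the range of Rgs5. With Rgs5 on the x axis the 2 farthest tumors were gene trap replicate 1 and wildtype replicate 5, and without them r was 0.62 (exact permutation p = 0.0746). The r of Rgs5 with the other members was also lower without these tumors. Rgs5 with Dpt went from 0.32 to -0.43, with Cspg4 from 0.48 to -0.08, with Lum from 0.71 to 0.19 and with Dcn from 0.76 to 0.33. The smallest change was with Pdgfrb, from 0.76 to 0.65.

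Pdgfra and Pdgfrb had r = 0.84 (permutation p = 0.00201, adjusted p = 0.162) and rho = 0.72 (permutation p = 0.0234, adjusted p = 0.306). Without gene trap replicate 1 and wildtype replicate 4, the tumors farthest from the median of Pdgfra, r was 0.56 (exact permutation p = 0.138), so the relation did not pass the threshold over the 8 tumors that remained, which also span a narrower range of Pdgfra. Within wildtype and gene trap tumors r was 0.83 and 0.86.

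Pdgfra and Cspg4 had r = 0.65 (permutation p = 0.0475, adjusted p = 0.422) and rho = 0.64 (permutation p = 0.0553, adjusted p = 0.387). This relation no longer held without the 2 farthest tumors, where r was 0.49 (exact permutation p = 0.184). It also differed in size between the genotypes, with r of 0.97 in wildtype and 0.42 in gene trap tumors, a difference that was not tested. Gene trap replicate 5, with the lowest Cspg4 of 182, had a middling Pdgfra of 1368.

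Counted over the set, 8 of the 9 other genes had a positive r with Pdgfra at an unadjusted permutation p under 0.05, against 5.84% of all genes, and Dpt was the exception. With Rgs5 this was so for 7 of 9, against 7.4% of all genes, the exceptions being Dpt and Cspg4. With Pdgfrb it was so for 4 of 9 (Pdgfra, Postn, Thy1 and Rgs5), against 4.93% of all genes. With Dpt it was so for 2 of 9 (Dcn and Lum), against 2.66% of all genes. After adjustment over all genes tested, 0 of 9 passed for any of the 4 genes, the lowest adjusted p being 0.0631 for Pdgfra with Dcn. The counts for Pdgfrb and Dpt were added after the values had been seen.

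The means of the 2 groups of genes parted in single tumors. Expressed as the mean deviation of the log2 values from the 10-tumor mean, wildtype replicate 3 had 0.33 for the fibroblast genes and -0.07 for the pericyte genes. Wildtype replicate 1 had the reverse, -0.21 and 0.14, as did gene trap replicate 3, with -0.18 and 0.12. Dpt carried much of this, since without it the fibroblast means of these 3 tumors were 0.26, -0.09 and -0.13. In the latter 2, Pdgfra (0.06 and 0.01) and Thy1 (0.09 and 0.04) were above 0. On the pericyte side Pdgfrb deviated most in these 3 tumors, with -0.23, 0.29 and 0.22. Rgs5 had -0.11, 0.10 and 0.11, and Cspg4 had 0.14, 0.03 and 0.02, so the pericyte genes did not part as a group. The tumors at either extreme moved in both groups alike. Wildtype replicate 5 had 0.61 and 0.56, gene trap replicate 1 had 0.69 and 0.43, and wildtype replicate 4 had -0.47 and -0.51.

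**Figure D4:**
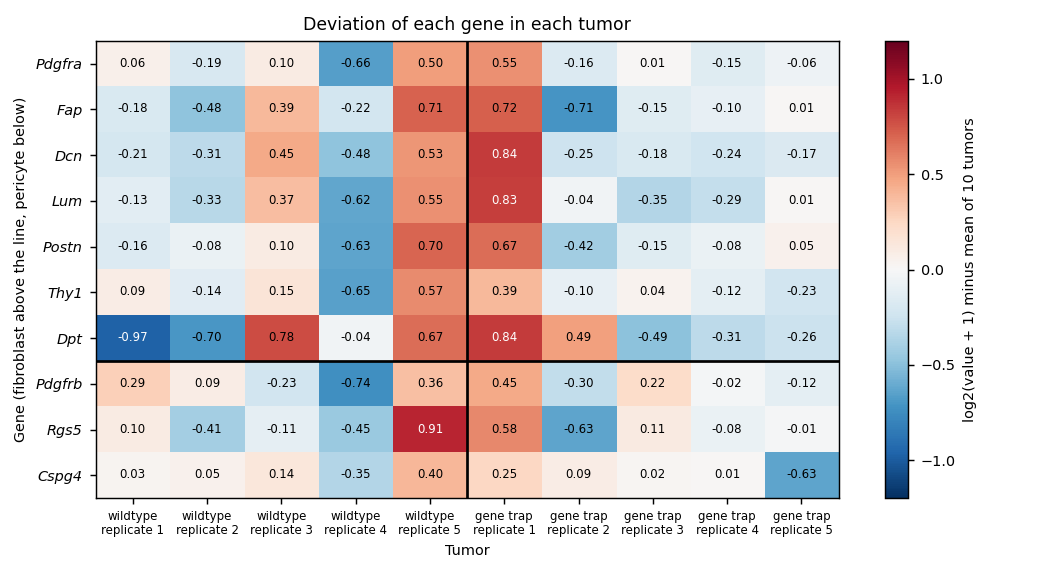
Deviation of log2(value + 1) from the mean of 10 tumors for each gene (rows, fibroblast genes above the horizontal line and pericyte genes below it) in each tumor (columns, wildtype left and gene trap right of the vertical line). The columns of wildtype replicate 5 and gene trap replicate 1 are above 0 throughout, and the row of Dpt runs from -0.97 in wildtype replicate 1 to 0.84 in gene trap replicate 1.

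The clearest parting was between Dpt and Pdgfrb, with r = -0.04 (permutation p = 0.919) and rho = -0.03 (permutation p = 0.944) over 10 tumors. The ratio of Dpt to Pdgfrb was 0.283, 0.395, 1.37, 1.11 and 0.844 in the wildtype tumors and 0.894, 1.17, 0.418, 0.557 and 0.62 in the gene trap tumors. The ratio was over 1 in gene trap replicate 2 and in replicates 3 and 4 of the wildtype group, and lowest in wildtype replicate 1, so tumors of both genotypes stood toward the upper end. This pair was chosen after its values had been seen. Without the 2 tumors farthest from the median of Dpt, r was -0.23 (exact permutation p = 0.596).

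Marker genes of other cell types also moved with the members, and their part in these results was not tested. For 12 endothelial genes, all of which were in the table and tested, the median r was 0.82 with Pdgfrb, 0.78 with Rgs5, 0.72 with Pdgfra and 0.06 with Dpt. Of the 12, 10 had a positive r with Pdgfrb at an unadjusted p under 0.05, against 4.93% of all genes. With Dpt 0 of 12 had one, against 2.66% of all genes, a share at which 0 of 12 is no result. Their summed level was 4425 to 7763 in wildtype and 4334 to 7309 in gene trap tumors. Emcn (endomucin, r = 0.902), Kdr (the VEGF receptor 2, r = 0.888) and Tie1 (r = 0.876) were among the endothelial genes that followed Pdgfrb, and with Dpt their r was -0.135, -0.198 and 0.027. The 2 that did not pass were Vwf (r = 0.271 with Pdgfrb) and Cldn5 (0.221). These 5 genes were picked after their values had been seen.

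Adipocyte and macrophage genes gave the opposite picture. The median r of 5 adipocyte genes (Adipoq, Fabp4, Lipe, Cfd and Plin4, of 10 on the list) was 0.73 with Dpt and -0.03 with Pdgfrb, and 5 of 5 had an unadjusted p under 0.05 with Dpt, against 2.66% of all genes. Plin1, Cidec, Lep, Pck1 and Retn were not analysed here. The summed adipocyte level was 3078, 3772, 11463, 5038 and 9928 in the wildtype tumors and 6112, 6484, 3841, 5546 and 2002 in the gene trap tumors. Wildtype replicate 3, which had the second highest Dpt, had the highest adipocyte sum, and wildtype replicate 1, with the lowest Dpt, had the lowest of its group. Other tumors departed from this order. The lowest sum of all tumors, 2002, was in gene trap replicate 5, where Dpt was 536. Gene trap replicate 1, with the highest Dpt of 1150, had a sum of 6112.

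The 10 macrophage genes had a median r of 0.73 with Dpt and -0.08 with Pdgfrb. Of these, 8 of 10 had a positive r with Dpt at an unadjusted p under 0.05, against 2.66% of all genes. Their sum was 18542 to 27666 in wildtype and 18458 to 25044 in gene trap tumors. Without the 2 tumors farthest from the median of Dpt, the median r with Dpt was 0.67 for the adipocyte and 0.64 for the macrophage genes. It was 0.71 for 7 skeletal muscle genes, against 0.44 over all 10 tumors. No gene passed the adjusted test with Dpt or with Pdgfrb, and the difference between these correlations was not tested. Luminal epithelial genes, all 9 present and with sums from 83030 to 115661, ran against the stromal genes, with a median r of -0.59 with Pdgfra, -0.60 with Rgs5, -0.59 with Pdgfrb and -0.10 with Dpt. The median r over all genes tested lay between -0.02 and 0.02 for these 4 genes.

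**Figure D5:**
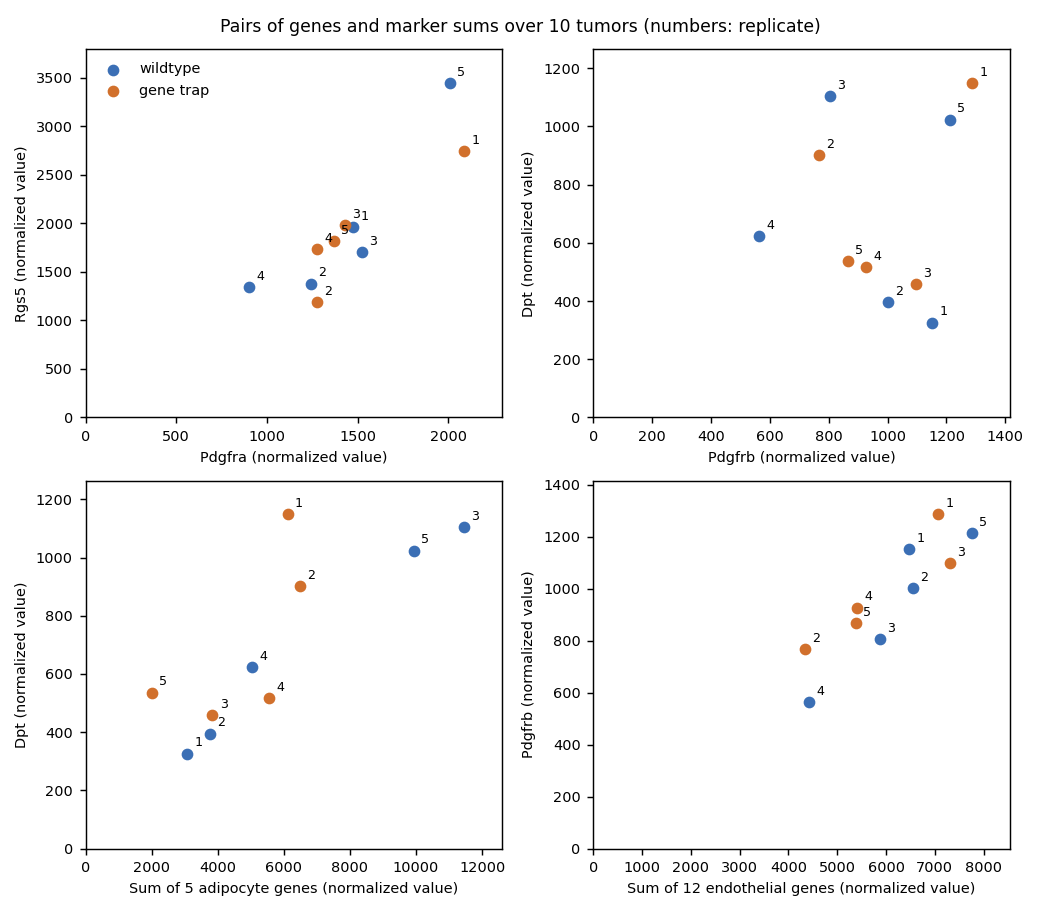
Each point is 1 of 10 tumors, colored by genotype and numbered by replicate, on linear axes of normalized values. Rgs5 rises with Pdgfra (r = 0.86 on log2 values), Dpt shows no common trend with Pdgfrb (r = -0.04), and the lower panels set Dpt against the sum of 5 adipocyte genes and Pdgfrb against the sum of 12 endothelial genes.

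Other fibroblast genes had a higher median r with Pdgfra than with Dpt or the pericyte members, a difference that was not tested. Of 47 listed, 46 were in the table and 45 were tested (Il6 was below the filter and Tcf21 was not analysed here). Their median r was 0.70 with Pdgfra, 0.58 with Rgs5, 0.46 with Pdgfrb and 0.44 with Dpt, and 25 of 45 had a positive unadjusted p under 0.05 with Pdgfra. That share is to be read against 5.84% of all genes. Without the 2 tumors farthest from the median of each gene, the median r was 0.46 with Pdgfra, 0.31 with Pdgfrb, 0.28 with Dpt and 0.00 with Rgs5. Pi16, a gene of adventitial fibroblasts, had r = 0.923 with Dpt and 0.711 with Pdgfra, and the collagen gene Col1a1 had 0.070 with Dpt and 0.719 with Pdgfra. Pi16 and Col1a1 were picked after their values had been seen.

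Between the genotypes, 28 of the 45 had a log2 difference above 0 and 17 below, with a median of 0.06, and under scaling to equal totals the split was 25 to 20. None passed the test at the adjusted or the unadjusted threshold. The 3 with the highest means were the collagens Col3a1 (log2 difference 0.11) and Col1a2 (0.23) and the matricellular gene Sparc (-0.02).

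The other pericyte and mural genes were less uniform than their name. Of 34 listed, 32 were in the table and 31 were tested (Cox4i2 was below the filter, and Foxf2 and Zic1 were not analysed here). Their median r was 0.34 with Rgs5, 0.25 with Pdgfrb, 0.18 with Pdgfra and -0.02 with Dpt, and 8 of 31 had a positive unadjusted p under 0.05 with Rgs5, against 7.4% of all genes. Gucy1a1, a subunit of the nitric oxide receptor guanylate cyclase, had r = 0.979 with Rgs5, its partner subunit Gucy1b1 had 0.870 and the transcription factor gene Ebf1 had 0.895. In contrast, Notch3, the mural Notch receptor, had r = -0.760 and Kcnj8, a potassium channel gene of pericytes, had -0.447 with Rgs5. Notch3, Kcnj8, Ebf1 and Gucy1b1 were picked after their values had been seen.

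Between the genotypes, 11 of these 31 genes had a log2 difference above 0 and 20 below, with a median of -0.05, and no gene passed the adjusted test. At an unadjusted limma p under 0.05 there were 2, both with lower values in gene trap tumors and with background at 0.956% in that direction. Myh11, the smooth muscle myosin heavy chain, was 1165 in wildtype and 768 in gene trap tumors on average (log2 difference -0.67, limma adjusted p = 0.9997). Tbx2, a T-box transcription factor gene, was 73.8 and 40.9 (log2 difference -0.76, limma adjusted p = 0.9997). The 3 with the highest means, Anpep, Steap4 and Mcam, had log2 differences of -0.03, -0.17 and -0.03.

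The 4 genes of PDGF ligands, which bind the receptors encoded by Pdgfra and Pdgfrb, had a median r of -0.11 with Pdgfra and 0.03 with Pdgfrb. With either receptor, 0 of 4 had a positive r at an unadjusted permutation p under 0.05. The shares over all genes were 5.84% for Pdgfra and 4.93% for Pdgfrb, at which 0 of 4 is no result. Over the tumors Pdgfa had r = -0.560 with Pdgfra, and Pdgfb had r = 0.127 with Pdgfrb. Pdgfc was the highest of the 4 ligand genes and was 2233 ± 302 in wildtype and 2561 ± 220 in gene trap tumors, a log2 difference of 0.20 (SE 0.10). Pdgfa had a log2 difference of -0.07 and Pdgfb one of 0.04. None of the 4 passed limma at the adjusted or the unadjusted threshold.

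The small leucine-rich proteoglycans related to Dcn and Lum were tested for 12 of 15 genes, and Kera, Epyc and Optc were not analysed here. Their median r was 0.59 with Pdgfra and 0.50 with Dpt. Bgn, which encodes biglycan and was the highest, had r = 0.862 with Pdgfrb and 0.174 with Dpt. Ogn, which encodes osteoglycin, had 0.114 and 0.820. Between the genotypes Bgn had a log2 difference of 0.04, Aspn 0.31 and Ogn -0.11. Nyx, at 25.2 in wildtype and 15.5 in gene trap tumors, had -0.69 (limma adjusted p = 0.9997) and was the 1 gene of the family past the unadjusted threshold.

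The genes most like Pdgfra over the 10 tumors, by Pearson's r, were Bicc1, an RNA-binding protein gene (0.969), Col6a3, a collagen VI chain (0.968), Rian, an imprinted long noncoding RNA (0.967), and the predicted genes Gm18852 (0.964) and Gm49064 (0.958). The adjusted permutation p of these 5 lay between 0.0631 and 0.0935. The genes most like Rgs5 were Gucy1a1 (0.979), Zfp26 (0.942), Gm37058 (0.939), Adgrl4, an adhesion receptor gene of endothelium (0.937), and Ccdc14 (0.935).

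With an adjusted p under 0.05, 5 genes varied with Rgs5 and 0 with Pdgfra. Gucy1a1 was the 1 positive gene (0.00475% of all genes), and Med25, Tapbp, Sertad2 and Ubl7 were negative (0.019%), with r from -0.978 to -0.942 and an adjusted p of 0.0421 for each of the 5. For none of them did the adjusted p stay under the threshold after the values were centred on the genotype means, or without gene trap replicate 1 or 2.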

How the data were processed

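Mammary tumor RNA was sequenced from TruSeq Stranded Total RNA libraries, per the labels. The authors deposited estimated counts scaled by the median ratio, a signal with no whole reads, from which depth could not be recovered. The submitters' processing notes name STAR 2.7.8a, Partek, DESeq2 and mm39. The annotation and counter were not given in the sources used here. The labels list 16 tumors, and 10 of 16 columns matched one. The other 6 columns were not used, so groups held 5 tumors in place of 8.

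Of the 23609 Ensembl identifiers, 97.0% had a symbol. Genes with a mean of at least 10 were analysed as log2(value + 1) with limma 3.58.1 (R 4.3.3, variance trend, Benjamini-Hochberg over all genes tested). Exact two-sided permutation used 252 arrangements. Correlations used 100000 resamples, or all arrangements below 10 tumors, two-sided (Python 3.11.15), and the smallest p they can give is 1.0e-05. Scripts were tested on simulated data.

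Named genes were the members, Resf1, the 5 genes most like Pdgfra and Rgs5, genes past the adjusted threshold, and in the fibroblast, pericyte, PDGF and proteoglycan lists those with an unadjusted p under 0.05 or the 3 highest means. Genes named outside this rule, those of the endothelial and basal lists among them, were picked after their values had been seen. Members and lists were chosen with earlier results of these data known. The labels do not say how many animals gave the tumors, so p-values measure the spread between these tumors. Column totals ran from 32000000 to 42200000.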

Additional observations from a re-analysis of the deposited data

Results flagged for a closer look

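In 3 genes, gene trap replicate 1 lay apart from the 4 other tumors of its group, by Dixon's criterion for 5 values. Pdgfra was 2088 in that tumor and 1276 to 1431 in the others. Dcn was 4246 and 1997 to 2113, and Lum was 2363 and 1037 to 1330. Chance gives such a value in about 1 of 20 groups, which is 1.1 of the 22 groups examined here, and the 3 genes are correlated over the tumors, so they are not independent cases. That this tumor had high fibroblast genes was known from earlier results of these data, so the values describe it and are no new evidence. The other fibroblast genes of the list summed to 241087 in that tumor and to between 120870 and 150986 in the rest of its group. The luminal epithelial sum was 85219 in that tumor, 85623 in gene trap replicate 3 and 83030 in wildtype replicate 1. The fibroblast sums of the latter 2 tumors were 150986 and 137560, so a luminal sum of that size was not particular to gene trap replicate 1.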

How the results depend on the processing

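No log2 difference of a member passed the test under any alternative, the lowest adjusted p being 0.979, and none of the alternatives gave a gene past the adjusted threshold. Directions were not stable. With gene trap replicates 1 and 2 both left out, the log2 difference was -0.028 for Pdgfra, -0.193 for Dcn, -0.183 for Lum, -0.045 for Postn and -0.301 for Dpt. With array weights it was 0.039 for Fap, 0.048 for Thy1, -0.030 for Dpt and 0.165 for Rgs5. Dcn was -0.024 with equal column totals and -0.001 after quantile normalization. Leaving out 1 tumor at a time gave ranges of -0.075 to 0.213 for Pdgfra, -0.083 to 0.193 for Pdgfrb, -0.282 to 0.077 for Fap, -0.206 to 0.137 for Dcn, -0.138 to 0.208 for Lum, -0.136 to 0.208 for Postn, -0.173 to 0.132 for Thy1, -0.124 to 0.314 for Dpt, -0.160 to 0.211 for Rgs5 and -0.206 to 0.040 for Cspg4. The cause was not tested.

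Genes with an unadjusted p under 0.05 numbered 479, 304 with equal column totals, 286 without gene trap replicates 1 and 2, and 307 to 694 when 1 tumor was left out. Same-numbered tumors of the 2 groups did not deviate together (5 pairs, r from -0.16 to 0.15), and 1 wildtype and 1 gene trap tumor correlated best with its own number. The replicate block gave 0 genes past the adjusted threshold and 426 at the unadjusted one, and log2 differences of 0.079 for Pdgfra and -0.014 for Rgs5.

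Pdgfra with Rgs5 ranged from 0.814 to 0.900 when 1 tumor was left out, and was 0.917 with equal column totals. Without wildtype replicate 5 and gene trap replicate 1 it was 0.624 (exact permutation p = 0.0746), and without wildtype replicate 4 as well 0.678 (exact permutation p = 0.103), alternatives chosen after seeing the data. Pdgfra with Cspg4 ranged from 0.537 to 0.924 with 1 tumor left out, passing the threshold only without wildtype replicate 2, gene trap replicate 2 or gene trap replicate 5 (0.924 without the last). It also passed at 0.780 with equal column totals, 0.716 on unlogged values and 0.688 centred on the genotype means (permutation p = 0.00876, 0.0221 and 0.0382). It did not pass at 0.613 after quantile normalization, 0.636 as Spearman's rho or 0.493 without the 2 farthest tumors. Nor did it pass at 0.637 without gene trap replicates 1 and 2, 0.389 without the 2 highest tumors and 0.048 without those 3 tumors. Pdgfra with Pdgfrb ranged from 0.700 to 0.889, and was 0.559 without the 2 farthest tumors and 0.207 without the 3. Dpt with Pdgfrb ranged from -0.292 to 0.135, and was 0.098 on unlogged values, 0.129 with equal totals and -0.894 (exact permutation p = 0.00833) without the 3 tumors.

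The median r of fibroblast-pericyte pairs ranged from 0.537 to 0.786 with 1 tumor left out. It was 0.780 with equal column totals and 0.493 without the 2 tumors farthest from the median of Pdgfra. Without wildtype replicate 5 and gene trap replicate 1 it was 0.332, and 0.048 without wildtype replicate 4 as well. The median of fibroblast-fibroblast pairs ranged from 0.801 to 0.886, and was 0.888, 0.804, 0.647 and 0.557 in the same order. With Pdgfrb counted among the fibroblast genes, the fibroblast-pericyte median was 0.677 and the fibroblast-fibroblast median 0.817. In the main setting they were 0.648 and 0.836. The 5 genes that varied with Rgs5 became 0 when values were centred on the genotype means, without gene trap replicates 1 and 2, and without either of them. Depth is unknown, so no limit from counting can be given.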

Other observations

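The basal and myoepithelial genes mark the contractile outer layer of the mammary duct. Their log2 differences were below 0 in 9 of 9 genes, also under either scaling. The median was -0.36 against 0.01 over all genes tested. Of all 21034 genes, 11900 were below 0 with equal column totals and 10175 after quantile normalization. Adipocyte genes were below 0 in 5 of 5 (median -0.48), endothelial genes in 10 of 12 and macrophage genes in 8 of 10. Skeletal muscle genes were below 0 in 1 of 7 and other fibroblast genes in 17 of 45. These counts are from the main fit, for which the background is the median of 0.01 over all genes tested. The genes of a list were measured in the same 10 tumors, so they are not independent cases. No gene of the basal list passed the adjusted limma test. Krt17, a basal keratin, was 716 ± 239 (SD, n = 5) in wildtype and 451 ± 104 in gene trap tumors, a log2 difference of -0.63 (limma adjusted p = 0.9997), and Krt14 had -0.21. The genes named from these lists were picked after their values had been seen. Myh11, Acta2 and Cnn1 are on this list and on the mural list, and their log2 differences were -0.67, -0.43 and -0.64. The median r of the basal list with Pdgfra and with Rgs5 was -0.13 and -0.14.

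Skeletal muscle genes varied widely, with sums from 854 to 13928 in wildtype and 2225 to 6322 in gene trap tumors. The highest sum was in wildtype replicate 5, which was also the tumor with the highest Rgs5, Postn, Thy1 and Cspg4. Their median r was 0.13 with Pdgfra, 0.27 with Rgs5 and 0.44 with Dpt. T and B lymphocyte genes, which include carriers of Thy1, were low, with sums from 97.8 to 696, and their median r was 0.27 with Pdgfra. The median r of the glial and Schwann genes with Pdgfra was -0.25.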
